A study of Mus musculus with 3 samples.

Results

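A set of 10 genes of the epithelial junctions was followed in single cells of mouse cochlear explants: Epcam, Cdh1, Cldn3, Cldn4, Cldn6, Cldn7, Cldn9, Ocln, Tjp1 and Dsp. They were matched by gene symbol, and all 10 were found, once each, among 31053 genes in the count tables. The explants came from mice of 4 to 6 weeks that carried rtTA/tet-on-Myc/tet-on-NICD. rtTA is a transcription factor that binds DNA only with doxycycline (Dox), and here it turns on Myc together with NICD, the signalling part that is cut from the Notch receptor. Which promoter drives rtTA is not stated in the sources used here. Dox cultures received 2 µg/ml Dox, control cultures sterile water, both for 4 days, and both carried all 3 transgenes. The sensory epithelium was then dissected and made into single cells, giving 2 Dox libraries (Dox 1 and Dox 2) and 1 control library, each from 4 pooled cultures. Dox without the transgenes was not analysed here, so effects of the drug and of the transgenes cannot be told apart.

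Epithelial cells are held together and sealed by a junctional complex. Tight junctions lie nearest the apical surface: claudins and occludin span the membrane there and set which ions pass between cells, and scaffold proteins of the zonula occludens family tie them to actin. Adherens junctions, built on E-cadherin, and desmosomes, which anchor keratin filaments, give the sheet its strength. In the cochlea this seal keeps the potassium-rich endolymph apart from the perilymph, and in humans and mice loss of claudin 9 or claudin 14 causes deafness.

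The libraries differed in depth and in makeup. They held 788 and 1095 barcodes with Dox and 512 in the control, and 20309102, 33385927 and 5436731 unique molecular identifiers (UMIs, each marking 1 captured RNA molecule). Libraries shared barcodes: 68 were common to both Dox libraries, 101 to Dox 1 and the control and 92 to Dox 2 and the control. Of these, 193 entries had 59.5 to 386 times fewer UMIs than the same barcode in another library and were left out. After filters on genes and mitochondrial UMIs, 595 and 925 Dox cells and 283 control cells were kept. Cells were grouped with the 10 genes and their partners left out of the clustering, and a cluster was epithelial where other epithelial markers (keratins, Esrp1, Rab25 and the like) were abundant. This gave 210, 502 and 55 epithelial cells in Dox 1, Dox 2 and the control, and 216, 232 and 188 other cells, while 169, 191 and 40 barcodes of shallow unnamed clusters were set aside. The transgene-related genes were higher with Dox in the epithelial cells: Notch1 was at 494 and 350 CPM (UMIs of the gene over all UMIs of the summed cells, on a fixed common total) in Dox 1 and Dox 2 and 57.1 CPM in the control, and Myc at 56.0, 55.4 and 15.8 CPM. UMIs of the transgenes and of the endogenous genes cannot be told apart there.

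The epithelial cells fell into 6 types, named by a marker list or by leading genes. Supporting cell-like cells (56, 26 and 23 cells in Dox 1, Dox 2 and the control) carried Gjb2, Gjb6, Sox2 and Fabp7. Epithelium led by Vmo1 and Otx2 held 24, 141 and 18 cells, and epithelium led by Epyc and Gabrp held 26, 80 and 14. The other 3 types, called Epyc Aqp4, Galnt7 Gabrp and cycling epithelium, had no control cells. Cycling epithelium joined a cluster of 96 cells with another of 84 cells. The first was led by Otx2, Lrp2 and Fut9, as Vmo1 Otx2 epithelium was, besides Mki67 and Top2a. Its cells are in neither the shares nor the fits of Vmo1 Otx2 epithelium. Vmo1 Otx2 epithelium gave 12.3% and 27.3% of the epithelial UMIs in Dox 1 and Dox 2 and 50.3% in the control. The dissected tissue is labelled sensory epithelium, but no hair cell-like cluster was found. The summed level of 9 hair cell markers in epithelial cells was 110 and 69.0 CPM in Dox 1 and Dox 2 and 316 CPM in the control, with Atoh1 at 0 in all 3 libraries.

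The promoters of the genes are shown first for 4 members whose Dox response is followed below. RefSeq windows (GRCm38.p6), from 250 bases before to 50 after a start site, were found for 8 of the 10 members, 10 windows in all. Cdh1 and Cldn9 had no entry. Capitals mark matches, on either strand, to 4 motifs: CACGTG, the E-box of MYC and MAX; TGGGAA, the core bound by RBPJ, the DNA-binding partner of NICD; CAGGTG, an E-box bound by the SNAIL and ZEB repressors of epithelial genes; and AACCGGTT, bound by grainyhead-like factors. No 2 kinds of motif overlap in the windows printed. Epcam is at chr17:87635729-87636028 (plus strand), Cldn6 at chr17:23679115-23679414 (plus strand), Cldn4 at chr5:134946885-134947184 (minus strand) and Cldn3 at chr5:134985964-134986263 (plus strand).
Epcam: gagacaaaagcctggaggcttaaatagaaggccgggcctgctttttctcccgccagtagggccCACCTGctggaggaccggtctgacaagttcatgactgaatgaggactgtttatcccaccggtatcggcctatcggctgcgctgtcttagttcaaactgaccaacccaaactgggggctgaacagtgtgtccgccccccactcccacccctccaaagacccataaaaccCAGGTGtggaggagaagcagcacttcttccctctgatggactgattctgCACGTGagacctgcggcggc
Cldn6: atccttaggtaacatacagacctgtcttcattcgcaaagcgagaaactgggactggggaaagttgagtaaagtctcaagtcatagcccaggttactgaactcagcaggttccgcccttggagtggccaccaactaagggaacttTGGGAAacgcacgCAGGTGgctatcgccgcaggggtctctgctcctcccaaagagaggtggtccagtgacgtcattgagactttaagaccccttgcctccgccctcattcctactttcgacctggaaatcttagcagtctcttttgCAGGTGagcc
Cldn4: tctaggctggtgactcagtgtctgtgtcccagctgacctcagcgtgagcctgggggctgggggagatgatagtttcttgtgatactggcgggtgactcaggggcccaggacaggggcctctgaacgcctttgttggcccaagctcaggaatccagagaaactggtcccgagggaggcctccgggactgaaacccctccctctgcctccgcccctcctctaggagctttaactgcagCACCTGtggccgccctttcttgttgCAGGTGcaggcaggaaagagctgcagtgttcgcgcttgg
Cldn3: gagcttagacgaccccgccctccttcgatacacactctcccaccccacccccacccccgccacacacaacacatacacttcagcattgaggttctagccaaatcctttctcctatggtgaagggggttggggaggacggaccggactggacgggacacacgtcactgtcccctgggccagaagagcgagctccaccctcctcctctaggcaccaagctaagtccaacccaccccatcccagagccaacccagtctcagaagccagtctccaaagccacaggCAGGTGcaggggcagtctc

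CAGGTG stood in 8 of the 10 windows, of 7 members, and in 20.2% of all 32851 windows of the same length. CACGTG stood in 1 of the 10, that of Epcam, and in 7.15% of all. TGGGAA stood in 3, those of Cldn6, Cldn7 and Dsp, and in 25.6% of all. AACCGGTT stood in none of the 10 and in 0.146% of all. These are matches of letters, not bound sites. The windows of Ocln overlap and share a CAGGTG, so that site counts in both. The start site of the Tjp1 window lies 156537 bases from the annotated start of the gene. Those of the Cldn6 window, of 1 Ocln window and of 1 Cldn7 window lie 116, 220 and 642 bases from it.

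Across cell types, 9 of the 10 genes marked the epithelium and Tjp1 did not, though Cdh1 was also counted outside it. With Dox, Cdh1 averaged 23.4 ± 2.33 CPM in pericyte-like cells (SD, n = 2 libraries). In supporting cell-like cells, the lowest epithelial type ranked, it averaged 97.5 ± 44.8 CPM. Tjp1 encodes ZO-1, a scaffold that also serves the junctions of cells without tight junctions. At an equal depth of 1000 UMIs per cell, Epcam, the epithelial cell adhesion molecule, had a UMI in 63.5% of epithelial cells of Dox 1, 63.0% of Dox 2 and 81.1% of the control. In other cells it had one in 0%, 0.442% and 0.559%. At full depth, with a median of 51806, 41503.5 and 28110 UMIs per epithelial cell, the shares were 93.8%, 99.0% and 92.7%. Tjp1 at equal depth was found in 6.40%, 8.13% and 7.55% of epithelial cells and in 8.08%, 10.6% and 11.7% of other cells, so the classes overlap. With Dox, Tjp1 averaged 93.2 ± 6.30 CPM in glia-like cells and 90.7 ± 6.80 CPM in Vmo1 Otx2 epithelium, next in order and overlapping, and 7.85 ± 5.49 CPM in macrophage-like cells, the lowest of the 8 types ranked (SD, n = 2 libraries).

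**Figure D1:**
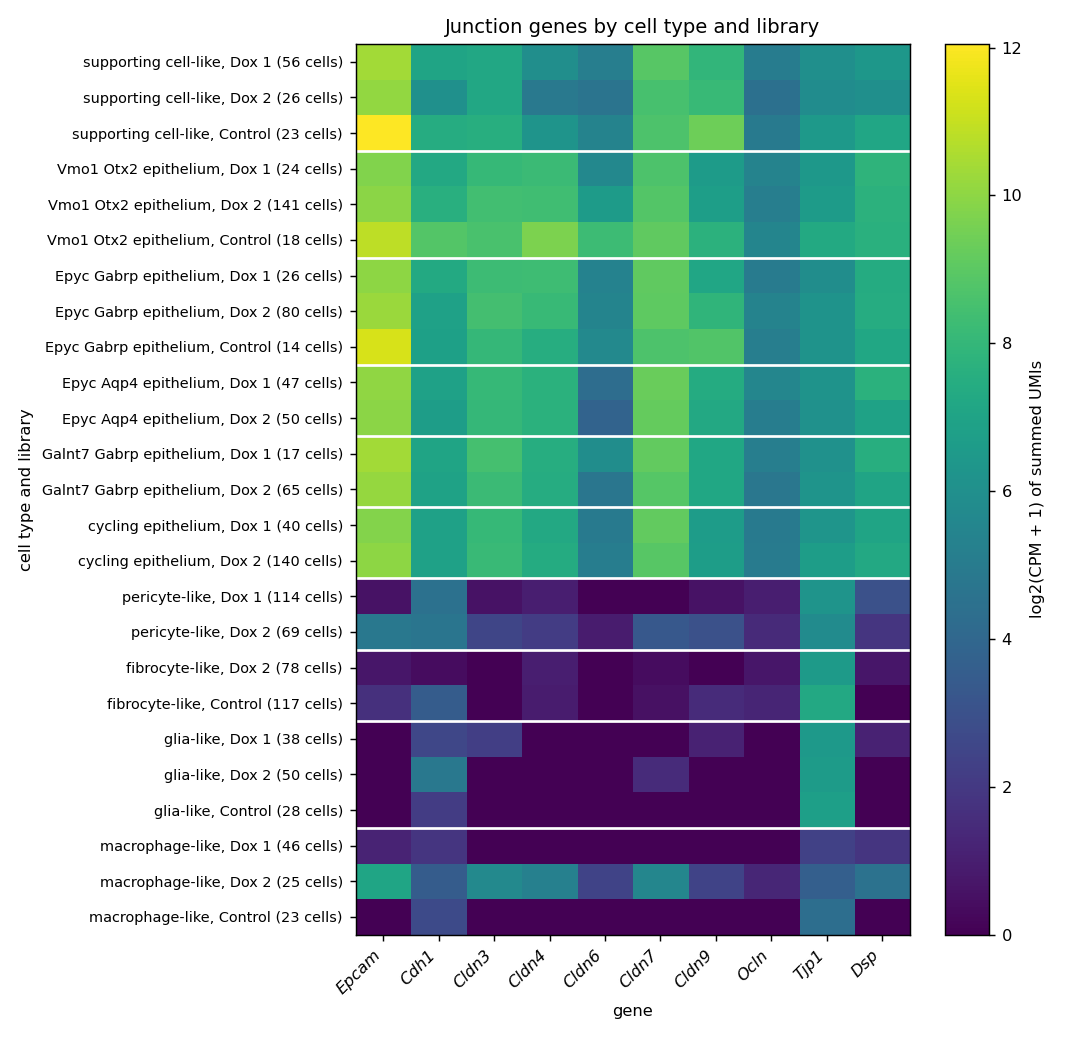
Colour shows the level of each gene as log2(CPM + 1) of UMIs summed over the cells of a type (rows, with cell numbers, for types with at least 10 cells in that library) in Dox 1, Dox 2 and the control. All genes but Tjp1 are high in the 6 epithelial types and near 0 in most other rows, and the Dox 2 row of macrophage-like cells stands out from the other macrophage-like rows.

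**Figure D2:**
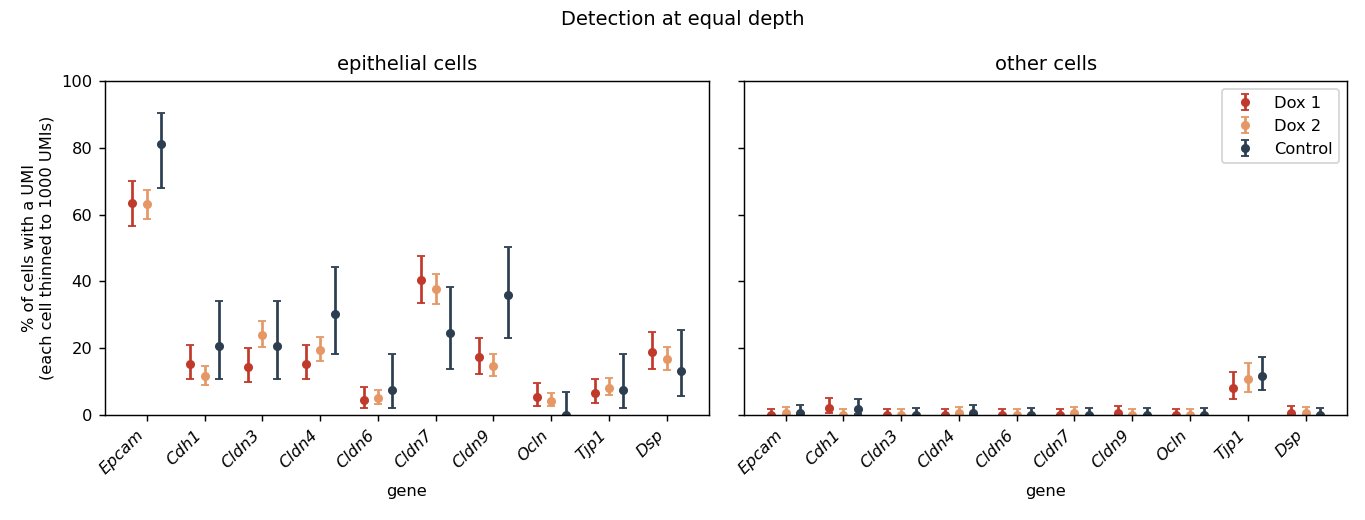
Share of cells with at least 1 UMI of each gene after every cell was thinned to 1000 UMIs, in epithelial cells (left) and other cells (right) of Dox 1, Dox 2 and the control; bars are 95% Clopper-Pearson intervals, which cover counting error only. Tjp1 is found at like shares in both panels, the other genes almost only in the left one.

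Within the epithelium the genes divided the types differently, as seen in the 2 Dox libraries, which hold all 6 types. Values here are unscaled CPM, means ± SD over the 2 libraries, in the 5 types with at least 20 cells in both. Cldn9, a claudin of the sensory epithelium in mice, was highest in supporting cell-like cells (263 ± 25.3 CPM), above the next type without overlap. It was lowest in cycling (101 ± 1.61 CPM) and Vmo1 Otx2 epithelium (102 ± 5.15 CPM), which overlapped. Part of cycling epithelium shared leading genes with Vmo1 Otx2 epithelium, as given above. Cldn4, a claudin that lowers cation passage in kidney cell lines, was ordered otherwise, with 312 ± 16.7 CPM in Vmo1 Otx2 and 298 ± 25.2 CPM in Epyc Gabrp epithelium, which overlapped, and 44.97 ± 23.2 CPM in supporting cell-like cells. Cldn3 (150 ± 0.955 CPM) and Dsp (71.7 ± 13.5 CPM) were also lowest of the 5 epithelial types in supporting cell-like cells, each without overlap with the next. Dsp encodes desmoplakin, the plaque protein that links desmosomes to keratin. Cldn6, a claudin of embryonic epithelia, was highest in Vmo1 Otx2 epithelium, at 48.8 and 97.1 CPM in Dox 1 and Dox 2. Epcam and Ocln, the gene of occludin, varied little: Epcam ran between 940 ± 85.5 and 1210 ± 148 CPM over the 5 types, each overlapping its neighbour, and Ocln between 26.7 ± 7.91 and 38.9 ± 8.30 CPM.

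Over 12 sums, each of 1 epithelial type in 1 library with at least 20 cells, log2(CPM + 10) of Cldn3 and Cldn4, which lie 39279 bases apart on chromosome 5 on opposite strands, had a Pearson r of 0.93. Epcam and Cldn9 had 0.88, while Cldn4 and Cldn9 had -0.64. Cldn6 and Cldn9 are neighbours too, on opposite strands of chromosome 17 with their 3' ends 137 bases apart, and had -0.13. Among the 12 sums, only that of supporting cell-like cells of the control was not from a Dox library. It held the highest values of both Epcam (4237 CPM) and Cldn9 (668 CPM), unscaled. Its part in these values was not tested. The sums share libraries, so the r values describe the pattern and no more. Over 22 sums of all types, the genes most like the summed 10 members were Bspry, Esrp1, Cgn, Crb3 and Rab15 (r of 0.96 each), of which Esrp1 served in naming the class. Epcam was followed most closely by Spint2, Gpx2 and Cldn7 (0.99, 0.99 and 0.98), Cldn9 by Mpzl2, Gpx2 and Smim22 (0.99, 0.98 and 0.98), and Tjp1 by Cnn3, Cyr61 and Pkn2 (0.93, 0.92 and 0.91).

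In the epithelial cells as a whole, Epcam, Cdh1, Cldn4, Cldn6 and Cldn9 fell with Dox, and Cldn3, Cldn7, Ocln, Tjp1 and Dsp did not pass the test. Thus 5 of 10 members fell and 0 rose, where 8.59% of the 13608 genes tested fell and 13.1% rose. The median log2 fold change of the 10 was -0.55, against 0.07 over all genes tested. Of the higher members, Cldn7 alone had an unadjusted p under 0.05 (0.0366). UMIs were summed per library, edgeR's quasi-likelihood test was run on the sums, p-values were adjusted over all genes by Benjamini-Hochberg, and CPM given with these tests is TMM-scaled. With 2 Dox libraries and 1 control, p-values rest on how far the Dox libraries lie apart, and part of that spread may be technical.

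Epcam (ENSMUSG00000045394, GRCm38 chromosome 17, 87635979 to 87651129, on the plus strand), a homophilic adhesion protein that also holds claudins at the membrane, was at 1114 and 1135 CPM in Dox 1 and Dox 2, against 2156 CPM in the control. Both Dox libraries were near each other and well below the control, a change of -0.94 on the log2 scale (SE 0.10, adjusted p = 0.0112, edgeR). Cdh1 (ENSMUSG00000000303, chromosome 8, 106603351 to 106670246, on the plus strand), which encodes E-cadherin, was at 140 and 148 CPM with Dox and 259 CPM in the control, a change of -0.85 (SE 0.13, adjusted p = 0.02001, edgeR). Neither gene's Dox values overlapped its control value. Mean depth was 59534 and 50197 UMIs per epithelial cell in Dox 1 and Dox 2 and 32261 in the control. Per cell, Epcam had 62.2 and 52.9 UMIs with Dox and 79.6 in the control, and Cdh1 7.82 and 6.90 against 9.58. Cldn4, Cldn6 and Cldn9 were also lower per cell in both Dox libraries, while Cldn3, Cldn7, Ocln, Tjp1 and Dsp were higher in both.

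Among the claudins, Cldn9 (ENSMUSG00000066720, chromosome 17, 23682584 to 23684026, on the minus strand) was at 157 and 146 CPM with Dox and 318 CPM in the control, a change of -1.07 (SE 0.13, adjusted p = 0.0140, edgeR). Cldn6 (ENSMUSG00000023906, chromosome 17, 23679249 to 23682446, on the plus strand) had the largest change of the 10, -1.79 (SE 0.25, adjusted p = 0.0162, edgeR), with 36.8 and 52.8 CPM in the Dox libraries and 156 CPM in the control. Cldn4 (ENSMUSG00000047501, chromosome 5, 134945119 to 134946934, on the minus strand) was at 205 and 242 CPM with Dox and 417 CPM in the control, a change of -0.90 (SE 0.16, adjusted p = 0.0237, edgeR). These 3 claudins fell, and the other 2 measured here did not move with them. Cldn3 (chromosome 5, 134986214 to 134987472, on the plus strand) was at 276 and 325 CPM with Dox and 270 CPM in the control, a difference of 0.15 (SE 0.16, adjusted p = 0.528, edgeR). Cldn7 (chromosome 11, 69964779 to 69967885, on the plus strand), a claudin that binds Epcam directly, was at 581 and 522 CPM with Dox and 418 CPM in the control, a difference of 0.40 (SE 0.14, adjusted p = 0.105, edgeR).

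Ocln (chromosome 13, 100496507 to 100552718, on the minus strand) was at 37.2 and 35.3 CPM with Dox and 33.5 CPM in the control, with 68 control UMIs behind that value. Tjp1 (chromosome 7, 65296165 to 65527781, on the minus strand) was at 76.3 and 96.1 CPM with Dox and 102 CPM in the control. Dsp (chromosome 13, 38151294 to 38198577, on the plus strand) was at 169, 177 and 151 CPM in Dox 1, Dox 2 and the control. Their log2 differences, 0.11, -0.25 and 0.20, missed the threshold with adjusted p-values of 0.691, 0.415 and 0.352 by edgeR. The SEs of 0.18, 0.20 and 0.14 leave room for changes of that size in either direction.

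**Figure D3:**
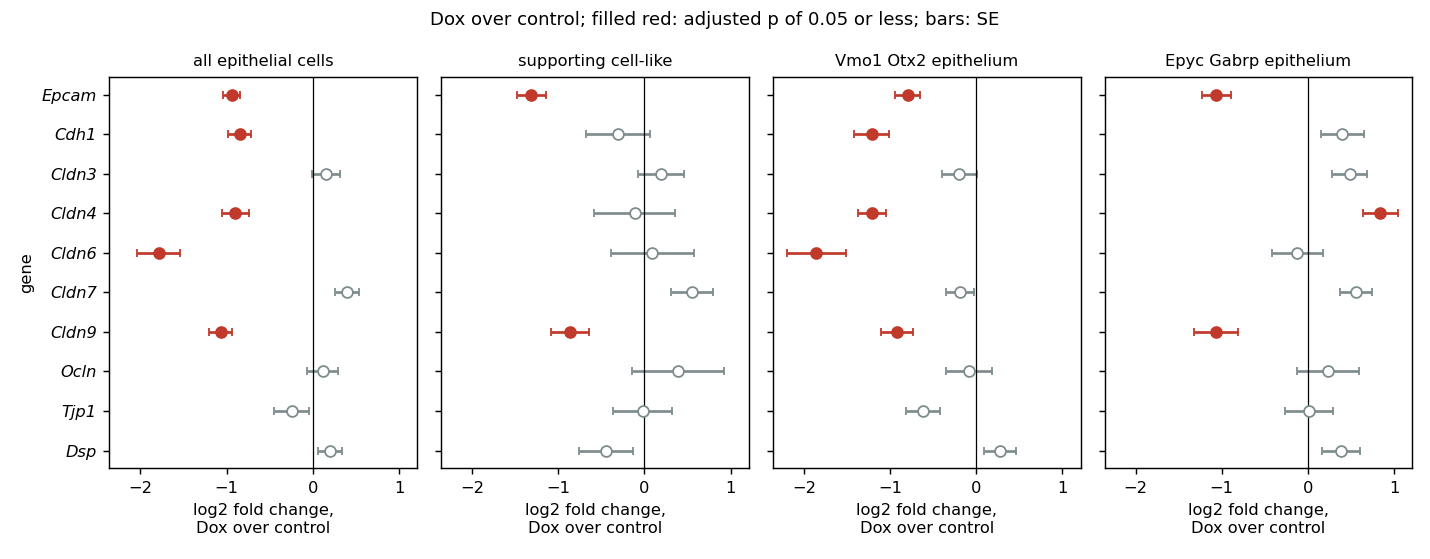
Log2 fold change of each gene, Dox over control, with its SE (bars), in all epithelial cells and in the 3 epithelial types that held control cells; filled red points passed an adjusted p of 0.05 by edgeR. Epcam and Cldn9 lie left of 0 and filled in all 4 panels, and Cldn4 is filled on opposite sides of 0 in the 2 right panels.

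The call for 3 of these genes depended on which epithelial cells were compared. When the comparison was limited to the 3 types that held control cells, a choice made after the data were seen, Epcam (-0.93, adjusted p = 0.019997) and Cldn9 (-0.90, adjusted p = 0.0356) still fell by edgeR's test. Cdh1 (-0.68, adjusted p = 0.0740), Cldn4 (-0.67, adjusted p = 0.122) and Cldn6 (-1.36, adjusted p = 0.0709) no longer passed it. In the control, 77.2% of the Cdh1 UMIs, 84.9% of the Cldn4 UMIs and 87.0% of the Cldn6 UMIs of the epithelium lay in the 18 cells of Vmo1 Otx2 epithelium. With every cell thinned to 1000 UMIs, so that deep cells weigh no more than others, Epcam fell (-0.73, adjusted p = 0.00271), Cldn7 rose (1.22, adjusted p = 0.0101) and no other member was called by edgeR. Scaling by total counts and not by TMM put the median of all genes at -0.22 and gave 1211 risen and 2154 fallen genes, against 1789 and 1169 with TMM, while the same 5 members were called. Cldn3, Ocln and Dsp then stood at -0.14, -0.18 and -0.10, without a call.

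Taken type by type, Epcam and Cldn9 fell by edgeR in each of the 3 epithelial types that held control cells, and Cldn4 moved in opposite directions in 2 of them. DESeq2 called Epcam in all 3 types and Cldn9 in none. Supporting cell-like cells met the minimum of 20 cells per library. The fits in Vmo1 Otx2 and Epyc Gabrp epithelium, with 18 and 14 control cells, were added after seeing the data.

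In supporting cell-like cells 2 of 10 members fell and 0 rose, where 3.31% of the 8918 genes tested fell and 6.32% rose, and the median of the 10 was -0.07 against 0.03 over all genes. Epcam was at 1525 and 1234 CPM in Dox 1 and Dox 2 and 3433 CPM in the control, a change of -1.31 (SE 0.17, adjusted p = 0.000156, edgeR). Cldn9 was at 284 and 313 CPM with Dox and 541 CPM in the control, a change of -0.86 (SE 0.22, adjusted p = 0.0226, edgeR). In both genes the Dox values lay below the control's without overlap. Mean depth in this type was 38703 and 30963 UMIs per cell with Dox and 12950 in the control. Per cell, Epcam had 50.9 and 34.2 UMIs with Dox and 54.9 in the control. Cldn9 had 9.48 and 8.69 UMIs per cell with Dox and 8.65 in the control, so its share of all UMIs fell but not its count per cell. The other 8 members had log2 differences between -0.45 (Dsp) and 0.55 (Cldn7), with SEs up to 0.53, resting on 9 to 123 control UMIs. The 3 deepest control cells held 45.5% of the control UMIs of this type. Without them Epcam was at -1.22 (adjusted p = 0.000106) and Cldn9 at -1.04 (adjusted p = 0.00831) by edgeR. Cells with little Malat1, a nuclear RNA, were common in all 3 libraries: leaving them out kept 26 of 56, 14 of 26 and 11 of 23 cells of Dox 1, Dox 2 and the control. Without those cells Cldn9 was no longer called (-0.69, adjusted p = 0.146, edgeR) and Epcam was (-1.20, adjusted p = 0.0290). Cldn9 also lost its call by DESeq2 (adjusted p = 0.143), under the strict cell filter (0.0526) and with cells thinned (0.377). The 9 hair cell markers summed to 300 and 251 CPM in this type with Dox and 1306 CPM in the control, with Atoh1 at 0 in all 3 libraries. The 15 supporting cell markers summed to 5633 and 5810 CPM with Dox and 10206 CPM in the control, with 13, 14 and 13 of them detected and Slc26a5 at 0 in all 3. The part of either list in the result was not tested. With total count scaling, where the median of all genes was -0.47 and 467 genes rose and 1456 fell in place of 564 and 295, Cdh1 (-0.81) and Dsp (-0.95) were called as fallen too.

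In Vmo1 Otx2 epithelium 5 of 10 members fell and 0 rose, where 8.26% of the 10478 genes tested fell and 9.62% rose, and the median of the 10 was -0.71 against 0.04 over all genes. They were the same 5 as in the whole epithelium. The rest, not called, had log2 differences of -0.62 (Tjp1), -0.19 (Cldn3), -0.19 (Cldn7), -0.08 (Ocln) and 0.28 (Dsp). Cldn6 was at 50.4 and 102 CPM in Dox 1 and Dox 2 and 288 CPM in the control, a change of -1.85 (SE 0.34, adjusted p = 0.0111, edgeR). Cldn4 was at 310 and 341 CPM with Dox and 755 CPM in the control (-1.21, SE 0.16, adjusted p = 0.00283, edgeR), and Cdh1 at 160 and 206 CPM with Dox and 427 CPM in the control (-1.21, SE 0.20, adjusted p = 0.00762, edgeR). Each Dox library was below the control in these 3 genes, and Dox 1 was below Dox 2. Epcam changed by -0.79 (adjusted p = 0.0103) and Cldn9 by -0.92 (adjusted p = 0.0160) in the same edgeR fit. With cells thinned, Epcam was not called (-0.37, adjusted p = 0.368, edgeR), and by DESeq2 neither Cldn6 (adjusted p = 0.159) nor Cldn9 (adjusted p = 0.101) was. Of 15 supporting cell markers, 8 and 11 had a UMI in Dox 1 and Dox 2 and 5 in the control, and their sum was 407 and 396 CPM with Dox and 1792 CPM in the control, with Gjb6, Tectb and Slc26a5 at 0 in all 3. Their part in the result was not tested. Median depth was 59428.5 and 37917 UMIs per cell with Dox and 48314 in the control.

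In Epyc Gabrp epithelium 2 members fell and 1 rose, where 7.37% of the 10760 genes tested fell and 7.18% rose, and the median of the 10 was 0.31 against 0.04. Epcam was at 1056 and 1265 CPM in Dox 1 and Dox 2 and 2423 CPM in the control (-1.06, SE 0.17, adjusted p = 0.000513, edgeR). Cldn9 was at 142 and 246 CPM with Dox and 410 CPM in the control (-1.07, SE 0.26, adjusted p = 0.0108, edgeR). Cldn4 was at 323 and 294 CPM with Dox and 172 CPM in the control, a rise of 0.84 (SE 0.21, adjusted p = 0.0131, edgeR), resting on 106 control UMIs. Both Dox libraries stood above the control in Cldn4 and below it in Epcam and Cldn9. Members not called had log2 differences of 0.55 (Cldn7), 0.48 (Cldn3), 0.40 (Cdh1), 0.39 (Dsp), 0.23 (Ocln), 0.01 (Tjp1) and -0.12 (Cldn6). With cells thinned, neither Epcam (-0.45, adjusted p = 0.378) nor Cldn9 (adjusted p = 0.507) was called by edgeR. Summed marker lists of other cell types moved too. Of 15 supporting cell markers, 11 were detected in each library, with Tectb, Prox1 and Slc26a5 at 0 in all 3. The 15 summed to 1918 and 1426 CPM with Dox and 6512 CPM in the control. Of 13 fibroblast and fibrocyte markers, 6, 8 and 5 were detected in Dox 1, Dox 2 and the control. The 13 summed to 88.9, 154 and 929 CPM, with Pou3f4, Prg4 and Tbx18 at 0 in all 3. Lum, on this second list, was also among the leading genes of Epyc Gabrp epithelium, so that sum is not of other cells' markers alone. The part of either list in the result was not tested. Cldn4 was no longer called without the 3 deepest of the 14 control cells (0.57, adjusted p = 0.102, edgeR), and DESeq2 called neither Cldn4 (adjusted p = 0.1995) nor Cldn9 (adjusted p = 0.576) there.

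The difference of the Dox effect between the 2 types was tested in 1 fit with the library as a block. It was called for 4 of 10 members, all lower in Vmo1 Otx2 epithelium, where 1.69% of the 11340 genes tested were called in that direction and 1.75% in the other. They were Cldn4 (-2.12, SE 0.25, adjusted p = 7.31e-07), Cdh1 (-1.68, SE 0.31, adjusted p = 0.000894), Cldn6 (-1.86, SE 0.40, adjusted p = 0.00369) and Cldn7 (-0.82, SE 0.22, adjusted p = 0.0303), by edgeR. For Epcam the difference was 0.20 (SE 0.16, adjusted p = 0.670) and for Cldn9 0.10 (SE 0.29, adjusted p = 0.937), so no difference between the types was shown for the 2 genes that fell in both. Without the 3 deepest control cells of each type, Cldn4 was still called (-1.66, adjusted p = 7.44e-05, edgeR), while Cdh1 (adjusted p = 0.0588), Cldn6 (0.0524) and Cldn7 (0.287) were not, and by DESeq2 Cldn4 was the 1 member called (adjusted p = 0.00316).

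**Figure D4:**
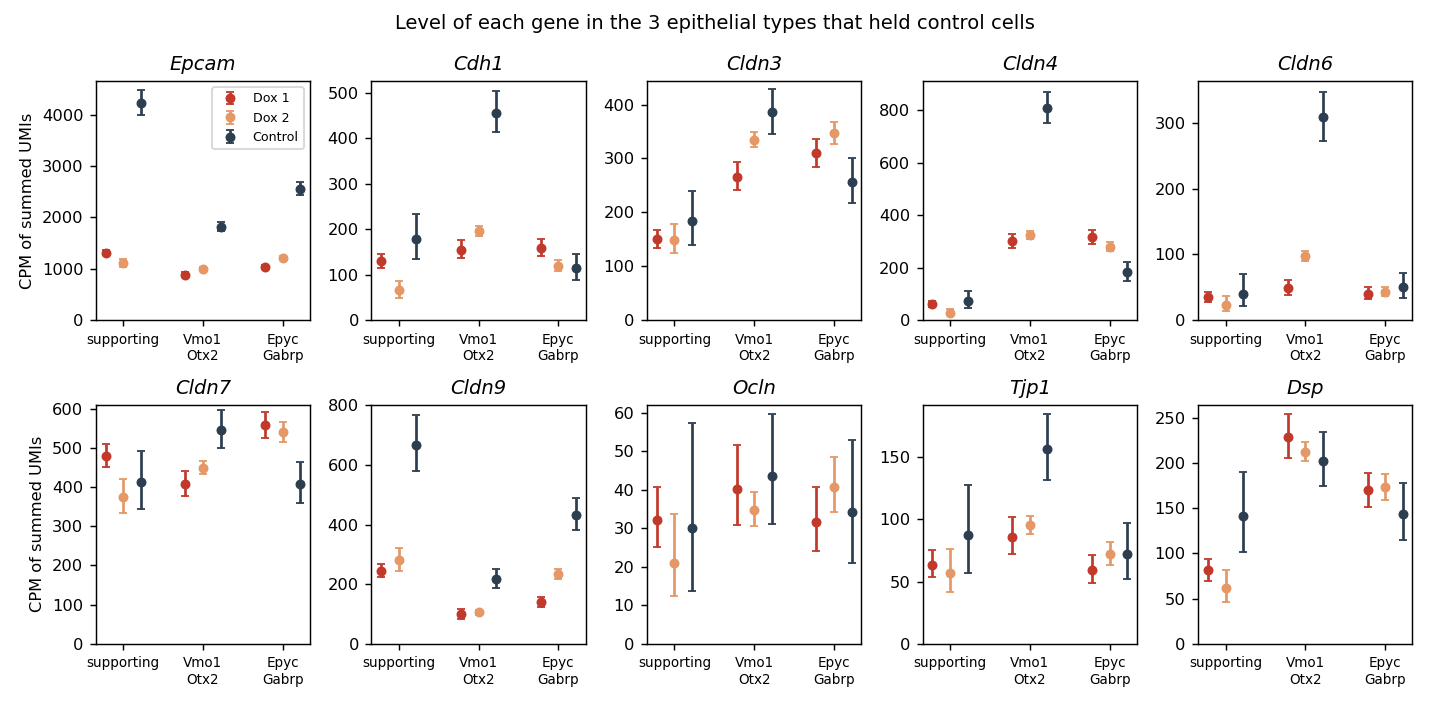
Level of each gene (unscaled CPM of summed UMIs, axes from 0) in Dox 1, Dox 2 and the control, in supporting cell-like cells, Vmo1 Otx2 epithelium and Epyc Gabrp epithelium; bars are 95% Poisson intervals, which cover counting error only. The control points of Epcam and Cldn9 are the highest in each type. In Vmo1 Otx2 epithelium the control points of all genes but Dsp lie above both Dox points, though those of Ocln lie within its control bar.

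Set against counting error alone, without TMM scaling, both Dox libraries lay below the control's Poisson interval for 8 of 10 members in Vmo1 Otx2 epithelium, all but Ocln and Dsp, where 21.8% of 12434 genes did. In supporting cell-like cells this held for 4 (Epcam, Cdh1, Cldn9 and Dsp), where 21.9% of 10912 genes did. In Epyc Gabrp epithelium it held for Epcam and Cldn9, where 17.3% of 11929 genes did, and both Dox libraries lay above the interval for Cldn3, Cldn4 and Cldn7, where 8.94% did.

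Other genes of the same junctions, from lists chosen with earlier results of these data known, were tested in the same fit of the whole epithelium, where 8.59% of all genes fell and 13.1% rose. Of 19 tested membrane partners and scaffolds of the tight junction, 6 fell and 1 rose, with a median of -0.55 against 0.07 over all genes. F11r, which encodes the junctional adhesion molecule A, was at 58.2 and 55.2 CPM in Dox 1 and Dox 2 and 117 CPM in the control (-1.04, adjusted p = 0.0165, edgeR). The polarity gene Pard6b (-1.58) and the actin-linked scaffold Cgnl1 (-1.41) fell more, and Marveld3, of the occludin family, by -0.99. The riser, named after its value was seen, was Tjp3 (0.90, adjusted p = 0.0388, edgeR), which encodes ZO-3, a relative of the Tjp1 product.

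The shares that fell among adherens junction genes (2 of 13), other claudins (1 of 9) and desmosome genes (1 of 9) were near that of all genes. The 2 adherens junction genes were both cadherin partners: Ctnnd1, p120-catenin (-1.01, adjusted p = 0.0163), and Ctnna1, α-catenin (-0.80, adjusted p = 0.0249), by edgeR. Nectin4 (1.17, adjusted p = 0.0632) and Cdh2 (-1.03, adjusted p = 0.238) did not pass. Of 9 other claudins tested, Cldn23 fell (-1.59, adjusted p = 0.0338, edgeR). Cldn14, the other claudin tied to deafness, was at 18.6 and 10.6 CPM with Dox and 31.01 CPM in the control and missed the threshold (adjusted p = 0.118). Of 9 desmosome genes, Ppl, periplakin, fell (-0.995, adjusted p = 0.0204) and Dsg2, desmoglein 2, was at 0.60 (adjusted p = 0.0642).

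Of 5 Epcam partners and surface proteases, Spint2, an inhibitor of the proteases that cleave Epcam, was at 351 and 351 CPM with Dox and 736 CPM in the control (-1.07, adjusted p = 0.0115, edgeR), and the protease Prss8, also among the markers that set the epithelial class, fell too (-1.05, adjusted p = 0.0238). The matriptase gene St14 was at -0.11 (adjusted p = 0.669, edgeR). Spint2 also fell in both Vmo1 Otx2 (-1.10) and Epyc Gabrp epithelium (-1.19). Of 9 epithelial transcription and splicing factors, Ovol2 fell (-2.19, adjusted p = 0.0145) and Esrp2 rose (2.64, adjusted p = 0.0201, edgeR), the second resting on 4 control UMIs, while Elf3 (0.49) and Klf5 (-0.32) did not pass. Of 4 tested genes of epithelial-mesenchymal transition, 0 were called by edgeR. Vim, vimentin, was at 54.0 and 42.2 CPM with Dox and 72.4 CPM in the control (-0.59, unadjusted p = 0.0421, adjusted p = 0.114), and Fn1, Snai1 and Twist1 had 5, 1 and 2 control UMIs. Vim was the 1 gene of the 4 with an unadjusted p under 0.05.

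The genes of these lists named next were chosen after their values were seen. In supporting cell-like cells only Pkp1, a desmosome plaque gene, was called from these lists (-1.83, adjusted p = 0.0474, edgeR). In Vmo1 Otx2 epithelium, where 8.26% of all genes fell and 9.62% rose, 6 of 17 tight junction partners fell (Pard6b, F11r, Cgnl1, Ildr1, Cgn and Crb3). So did 2 of 12 adherens junction genes and 2 of 5 Epcam partners and proteases. Of 8 transcription and splicing factors 1 fell and 2 rose. No gene of the other lists was called there. In Epyc Gabrp epithelium, where 7.37% of all genes fell and 7.18% rose, 2 of 18 tight junction partners fell (Cxadr and F11r). Marveld2, tricellulin, rose there (2.38, adjusted p = 0.0466, edgeR). Of 12 adherens junction genes 1 fell and 1 rose. Also fallen were 1 of 5 other claudins, 2 of 9 desmosome genes and 2 of 5 Epcam partners and proteases. Of 8 transcription and splicing factors 1 fell, as did the 1 tested gene of epithelial-mesenchymal transition (-0.86).

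Outside the epithelium, Dsp rose with Dox and no other member passed the test: 1 of 8 members tested rose and 0 fell, where 4.19% of the 13541 genes tested rose and 4.42% fell. Dsp had 31 and 23 UMIs in Dox 1 and Dox 2 and 0 in the control, but 67.7% and 60.9% of the Dox UMIs came from a single cell in each library. The call (adjusted p = 0.0430, edgeR) held in 6 of 14 alternatives. Cell types outside the epithelium were also unlike in number, with 114 and 69 pericyte-like cells in Dox 1 and Dox 2 and 3 in the control, and 5, 78 and 117 fibrocyte-like cells. Their part in the result was not tested. Tjp1, at 413, 501 and 430 UMIs the one member well counted there, was at 70.6 and 78.5 CPM with Dox and 113 CPM in the control, a difference of -0.60 that missed the threshold (SE 0.21, adjusted p = 0.133, edgeR).

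The UMIs of the 9 members other than Tjp1 were unevenly spread outside the epithelium in Dox 2, and less so in the other libraries. In Dox 1 they had 147 UMIs over 52 cells, 31 of them in 2 cells with 10 or more, and in the control 55 UMIs over 26 cells, none with 10 or more. In Dox 2 the 9 members other than Tjp1 had 434 UMIs in other cells, and 379 of them lay in 3 barcodes with a median of 117945 UMIs, which also held 225 of the 272 Krt8 and Krt18 UMIs of that class. Epcam in macrophage-like cells was called as higher with Dox (adjusted p = 0.00171, edgeR), with 1, 92 and 0 UMIs in Dox 1, Dox 2 and the control, and all 92 lay in 1 barcode. It was the 1 member called of 6 tested, where 1.27% of the 7742 genes tested rose. Whether those barcodes held more than 1 cell was not tested. In glia-like cells, where Cdh1 and Tjp1 were tested, 0 of 2 were called by edgeR or DESeq2, and 0 had an unadjusted p under 0.05, while 7.05% of the 7618 genes tested were. Epcam had 0 UMIs in all 3 glia-like sums.

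No member's Dox effect was shown to differ between epithelial and other cells: 0 of 10 were called by edgeR and 0 by DESeq2, where 0.041% of the 14650 genes tested were. Of the 10, Cdh1 (-1.80, adjusted p = 0.134), Cldn4 and Dsp had an unadjusted p under 0.05 and 7 did not, while 2125 of all genes tested had one. The test had little to work with, since 8 of the 10 members had 13 control UMIs or fewer in other cells.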

How the data were processed

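Single-cell libraries were made with 10x 3' chemistry. The deposited values are counts of UMIs per gene and barcode, made by the authors with Cell Ranger 5.0 per the submitters' processing notes, while the file headers give software version 3.1.0; the build is mm10 (GRCm38) per the submitters' processing notes. Barcodes under 200 genes or over 20% mitochondrial UMIs were dropped, and shallow copies of barcodes shared between libraries were left out. Kept cells were clustered with scanpy 1.11.5 (2000 variable genes, 30 components, 15 neighbours, Leiden resolution 1) without 73 junction genes. A cluster was epithelial at 1000 CPM or more of summed general epithelial markers. Unnamed clusters with a median depth far below their libraries' were set aside as neither epithelial nor other cells. Scrublet marked 1, 0 and 2 barcodes in Dox 1, Dox 2 and the control, too few to show that doublets were found, and none were removed in the results given.

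UMIs were summed per library and class and tested with edgeR 4.0.16 (quasi-likelihood, TMM, filterByExpr, adjusted p of 0.05) with 2 Dox libraries against 1 control, which leaves 1 residual degree of freedom between libraries. The edgeR fits of epithelial and of supporting cell-like cells were also run on counts simulated from the observed gene shares with a fixed dispersion. The other fits were not, and no result of the simulation is given here. DESeq2 1.42.0 was an alternative. Intervals are at 95% and, like the spread between pooled libraries, cover no difference between animals. Pseudocounts were 10 for correlations. The members and lists were chosen with earlier results of these data known. All 10 members entered each comparison where their counts allowed, and members not called are not all given with values. Up to 4 genes of each further list were to be named by smallest p in the epithelium. For likeness the rule took the 5 genes closest to the summed members and the 3 closest to each member. A gene that this rule names is not reported here. Alternatives are listed with their effects at the end.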

Additional observations from a re-analysis of the deposited data

Results flagged for a closer look

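The Dox effect differed between 2 epithelial types in 4 genes, by a test of the difference itself in edgeR with the library as a block. The log2 effect in Vmo1 Otx2 epithelium minus that in Epyc Gabrp epithelium was -2.12 for Cldn4, -1.68 for Cdh1, -1.86 for Cldn6 and -0.82 for Cldn7. The test was added after seeing the data and rests on 18 and 14 control cells. Without the 3 deepest control cells of each type Cdh1, Cldn6 and Cldn7 were no longer called, by DESeq2 Cldn4 was the 1 gene of the 4 called, and with cells thinned Cldn4 was not (adjusted p = 0.467, edgeR).

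Signal was also present in the barcodes set aside, which entered the tests as alternatives alone. Cldn7 was at 274 and 247 CPM there in Dox 1 and Dox 2 and 34.8 CPM in the control, and Dsp at 96.2, 96.4 and 23.2 CPM. The control values rest on 3 and 2 UMIs.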

How the results depend on the processing

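No paired analysis was possible because there was 1 control library, whose label carries no replicate number. Leaving out either Dox library left no test, and gave epithelial log2 values of -1.02 to -0.95 for Epcam, -1.14 to -1.08 for Cldn9, -0.96 to -0.83 for Cdh1, -1.09 to -0.81 for Cldn4 and -2.14 to -1.58 for Cldn6. Over 18 alternatives in the epithelium, Epcam was called in 18, Cldn9 in 17, Cdh1 in 16, Cldn6 in 16 and Cldn4 in 15, with no change of sign. No called value reversed. The causes below were not tested. Alternatives added after seeing the data were those on shallow clusters, shallow copies, deepest control cells, and epithelial types left out.

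In the epithelium, 2958 genes were called in the main analysis, 1821 by DESeq2 and 433 with cells thinned. Leaving out cycling epithelium kept Galnt7 Gabrp epithelium in, whose leading genes held Ccnb2 and Cenpa, so not every cycling cell was removed. It gave 1676 called genes, and leaving out all types lacking control cells gave 1135. The members called were 5, 4 without cycling epithelium (Cldn4 lost, adjusted p = 0.0578, edgeR) and 2 with cells thinned or without the types lacking control cells. In supporting cell-like cells 859 genes were called, 1923 with total count scaling, 286 by DESeq2, 560 with the strict cell filter, 1362 at Leiden resolution 2, 83 with cells thinned, 515 without cells of little Malat1 and 557 with shallow copies kept. The members called there were 2, with total count scaling 4, and 1 each by DESeq2, with the strict filter, with cells thinned and without cells of little Malat1.

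In other cells 1166 genes were called, 2427 with no low-count filter, 739 with the strict filter, 703 at Leiden resolution 2, 704 with junction genes kept in the clustering, 0 when libraries were clustered separately (2791 genes had an unadjusted p under 0.05), 600 with cells thinned and 329 without cells of little Malat1. Total count scaling gave 202 risen and 603 fallen genes, against 567 and 599, with a median of -0.27. The 1 member called became 2 with no filter and 5 with shallow clusters added. It became 0 with total count scaling, DESeq2, the strict filter, Leiden resolution 2, junction genes kept, libraries clustered alone, cells thinned, cells of little Malat1 left out or shallow copies kept.

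For a different Dox effect in epithelial and other cells, 6 genes were called. The count was 0 with DESeq2's size factors (2015 unadjusted), total count scaling (2081), Leiden resolution 0.5 (2083) or 2 (2037), libraries clustered alone (1646), cells of little Malat1 left out (2076) or types lacking control cells left out (1471). It was 179 with no filter, 82 by DESeq2, 14 with the strict filter, 2 with junction genes kept and 57 with cells thinned. It was 1 with shallow epithelial clusters added and 331 with shallow clusters added to other cells. Without cycling epithelium it was 2, and without supporting cell-like cells 130. The 0 members called became 2 with no filter and 8 with shallow clusters added. Clustering each library alone gave no value for supporting cell-like cells, since Dox 2 then had no such cluster. With total count scaling, Vmo1 Otx2 epithelium had 673 risen and 1033 fallen genes, against 1008 and 866 (median -0.12), and Epyc Gabrp epithelium 556 and 951, against 773 and 793 (median -0.09).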
